A study of Homo sapiens with 19 samples.

Results

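The genes of the hypoxia-inducible factor (HIF) subunits were followed in 786-O cells, an established clear cell renal carcinoma line that lacks functional VHL. They are 4 of the 23441 gene symbols in the count table: HIF1A (HIF-1α), EPAS1 (HIF-2α), HIF3A (HIF-3α) and ARNT (HIF-1β), taken by symbol, together with the called ChIP-seq peaks near their start sites. 3 of the 4 passed the filter on low counts, and HIF3A did not. Within 100 kb of a start site of these genes lay 28 of the 29309 peaks. Pools of cells had been transduced with the lentiviral vector pRRL.IRES.EGFP, empty (control cells), with HIF-1α cDNA (HIF-1α re-expressing cells) or with HIF-2α cDNA (HIF-2α overexpressing cells). RNA-seq was made in 3 libraries of each pool, and ChIP-seq in 1 library for each antiserum and pool, for HIF-1β and HIF-2α in all 3 pools and for HIF-1α in the re-expressing cells. All pools share the VHL defect, the vector and the EGFP reporter, and no hypoxic treatment is given in the labels. 786-O cells have no full-length HIF-1α transcript of their own, so the control cells are a HIF-2α background, and a count per gene cannot tell the endogenous transcript from the viral one. In the RNA of a pool, more transduced cells and more mRNA in each cell cannot be told apart.

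HIF-α subunits pair with HIF-1β and bind the core sequence of hypoxia response elements (HRE), ACGTG or GCGTG. In oxygenated cells prolyl hydroxylases of the EGLN family mark HIF-α for recognition by the VHL protein and for degradation. Without VHL, as in most clear cell renal carcinomas, HIF-α accumulates at any oxygen level. HIF-1β is made constitutively and is shared with other proteins that carry bHLH and PAS domains.

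The 9 RNA-seq libraries held 27852754 to 54287621 counts. Of 7 markers of renal epithelium and renal carcinoma, 6 reached at least 1 CPM (counts for every 1000000 of the library) in every library, and LRP2, a receptor of the proximal tubule, had at most 2 counts. Of 5 markers of immune and endothelial cells, 4 stayed under 1 CPM in every library, with CD3E at 0 counts throughout. CD68, the fifth, which is also made outside the immune system, had between 28.6 and 160.2 CPM. Control replicate 3 stood apart from the other control libraries in HIF1A and in its target CA9. Values from edgeR that moved by over 1.5 times or lost their call without it are given without it as well. DESeq2 was not refitted without that library.

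3 stretches of sequence are shown because peaks were called over them: the 250 bases before the RefSeq start sites of HIF1A and EPAS1, and 300 bases of a site upstream of EPAS1 at which all 7 peak lists had a peak. All are the plus strand of GRCh37, along which both genes run, and the promoters were found there from the RefSeq promoter sequences. Capitals mark the HRE core, searched as ACGTG and GCGTG on both strands, and the AP-1 motif TGACTCA. The promoters lie at chr14:62161981-62162230 and chr2:46524296-46524545 and the upstream site at chr2:46460025-46460324, where GENCODE has no gene.
HIF1A promoter: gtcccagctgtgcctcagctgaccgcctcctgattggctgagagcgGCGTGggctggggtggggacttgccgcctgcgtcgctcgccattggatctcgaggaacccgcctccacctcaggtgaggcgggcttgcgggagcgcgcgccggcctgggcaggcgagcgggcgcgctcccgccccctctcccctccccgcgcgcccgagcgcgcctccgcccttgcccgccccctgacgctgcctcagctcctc
EPAS1 promoter: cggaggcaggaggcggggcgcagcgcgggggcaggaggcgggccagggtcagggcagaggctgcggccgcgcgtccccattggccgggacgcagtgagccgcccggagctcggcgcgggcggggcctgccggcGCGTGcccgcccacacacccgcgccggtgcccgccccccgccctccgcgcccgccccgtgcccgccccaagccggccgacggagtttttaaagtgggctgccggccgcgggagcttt
EPAS1 upstream site: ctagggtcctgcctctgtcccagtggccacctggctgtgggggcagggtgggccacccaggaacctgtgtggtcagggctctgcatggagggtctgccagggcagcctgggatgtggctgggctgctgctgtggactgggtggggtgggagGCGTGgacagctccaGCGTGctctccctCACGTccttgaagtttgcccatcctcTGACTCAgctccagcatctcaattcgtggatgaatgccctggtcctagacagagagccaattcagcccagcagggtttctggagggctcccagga
Each promoter held 1 HRE core. Over the 300 bases of the RefSeq entries, which include 50 after the start, HIF3A had 3 HRE cores, ARNT had 0, and 48.4% of 35116 promoters had at least 1. A match describes the letters and is not a binding site.

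HIF1A, the gene whose cDNA was returned to the cells, was highest in the pool that received it and varied widely there. Values are CPM, scaled by edgeR's TMM factors for library composition. In cells re-expressing HIF-1α it had 171.4, 1681 and 472.4 CPM, in the order of replicates 1 to 3. In the control cells it had 30.4, 36.7 and 151.6 CPM, and in the HIF-2α overexpressing cells 15.3, 30.3 and 17.5 CPM. The re-expressing libraries all lay above the control libraries, but replicate 1 exceeded control replicate 3 only narrowly, and the highest re-expressing library was 9.81 times the lowest. Libraries of the same replicate number deviated together (r of 0.348 to 0.652 across genes), so ratios were also taken within numbers: HIF1A was 5.64, 45.8 and 3.12 times its control in replicates 1, 2 and 3, a mean of 18.2 ± 24.0 (SD, n = 3 pairs).

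Against the control cells, HIF1A had a log2 fold change of 3.41 (SE 0.87, adjusted p = 0.149, edgeR quasi-likelihood test). With the replicate number as a block it was 3.12 (SE 0.71, adjusted p = 0.0418, edgeR), which passed the threshold of 0.05. Over all alternatives its adjusted p (edgeR or DESeq2) lay between 0.0230 and 0.347. In that comparison the fit without a block called 0% of 14225 genes in either direction. At an unadjusted p under 0.05 it found 1586 genes higher, which is 11.1%, and 1171 lower. The block called 5.41% of genes higher, and DESeq2 called 3.39%. Leaving out re-expressing replicate 2 gave 2.11 for HIF1A, and without control replicate 3 it was 4.52. With the block and without control replicate 3, a fit added after its values were seen, HIF1A was at 4.12 (SE 0.66, adjusted p = 0.0951, edgeR) and did not pass. That fit called 0 of 14471 genes in either direction, with 1680 higher and 1245 lower before adjustment. The groups did not overlap for HIF1A, nor did they for 24.1% of tested genes, in either direction, and 29.0% of tested genes were higher in all 3 pairs.

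In the HIF-2α overexpressing cells HIF1A was below its control of the same number in 3 of 3 pairs, at 0.503, 0.827 and 0.115 times the control level, as were 19.4% of tested genes. The log2 fold change was -1.79 (SE 0.82, adjusted p = 0.837, edgeR), and -0.68 without control replicate 3. No alternative passed the threshold, with a lowest adjusted p of 0.313 (edgeR or DESeq2). With the block HIF1A was lower at an unadjusted p under 0.05 (edgeR), as were 973 of 14225 genes. It was not without the block, nor with the block and without control replicate 3. By TMM scaling the highest overexpressing library fell just short of the lowest control library, 30.3 against 30.4 CPM (11.2% of tested genes had groups without overlap, in either direction), and by library size alone the groups overlapped, at 31.2 and 30.1 CPM. Between the 2 infected pools HIF1A was 5.20 higher on the log2 scale in the re-expressing cells (SE 0.95, adjusted p = 0.0614, edgeR). The block gave 4.79 (SE 0.74, adjusted p = 0.00887, edgeR), within an adjusted p of 2.94e-05 to 0.242 over all alternatives (edgeR or DESeq2). The block called 4.54% of genes higher in that comparison, DESeq2 3.32%, and the fit without a block 0.0281%. The groups of libraries did not overlap for HIF1A, as for 19.2% of tested genes in either direction.

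**Figure D1:**
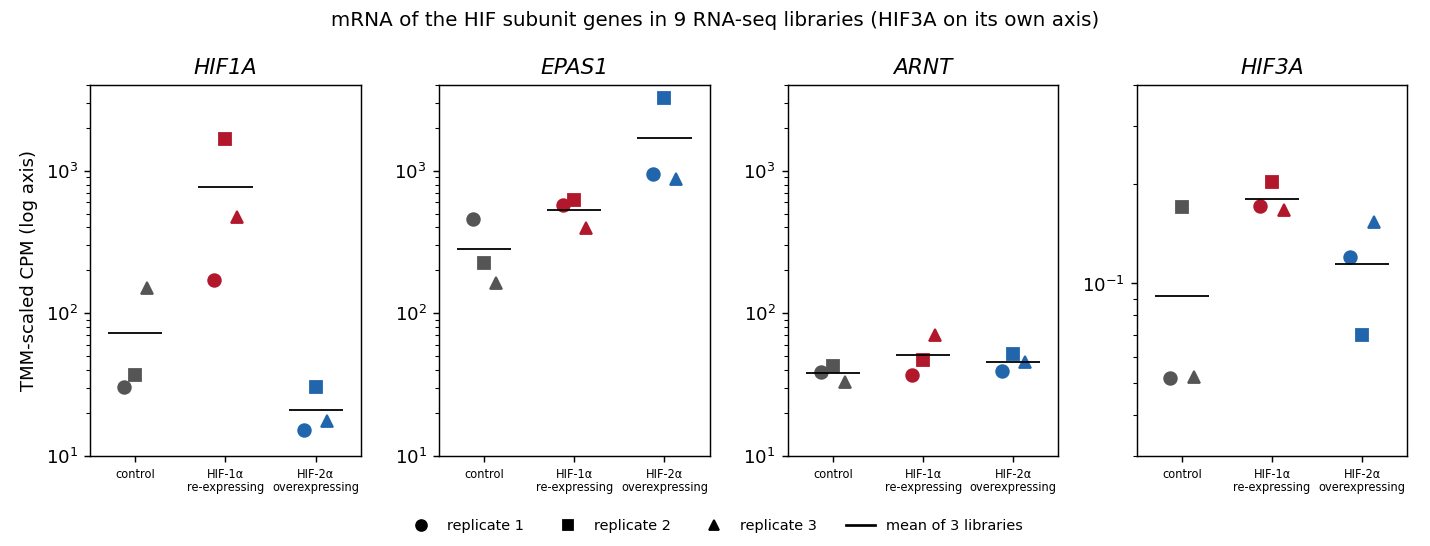
TMM-scaled CPM (log axis) of HIF1A, EPAS1, ARNT and HIF3A in 3 libraries of each pool, with HIF3A on an axis of its own. Symbols give the replicate number and bars the mean of 3 libraries. HIF1A spans 15.3 to 1681 CPM, whereas ARNT stays between 33.1 and 69.9 CPM.

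SNAPC1, which encodes a subunit of the complex that activates small nuclear RNA genes, starts 14.2 kb beyond the end of HIF1A on the same strand (chr14:62229138-62263146) and was followed as the neighbour of that locus. It had 31.2, 25.4 and 63.0 CPM in the re-expressing cells, 16.3, 11.5 and 33.3 CPM in the control cells and 9.77, 11.1 and 11.4 CPM in the overexpressing cells. The paper reports fusion transcripts with sequence of HIF1A and of SNAPC1 in control 786-O cells. A count per gene cannot tell reads of such transcripts from others. Control replicate 3 was the highest control library for both genes. In pairs SNAPC1 was 1.92, 2.21 and 1.89 times its control after re-expression, a mean of 2.00 ± 0.175 (SD, n = 3 pairs), far more even than HIF1A. Its log2 fold change was 0.97 (SE 0.43, adjusted p = 0.255, edgeR), and 1.51 without control replicate 3. Between the infected pools it was 1.89 higher in the re-expressing cells (SE 0.44, adjusted p = 0.110, edgeR), and with the block 1.74 (SE 0.28, adjusted p = 0.0102, edgeR). The counts of HIF1A were 5.49, 66.3 and 7.50 times those of SNAPC1 in the re-expressing libraries, 1.87, 3.19 and 4.55 times in the control libraries and 1.56, 2.74 and 1.53 times in the overexpressing libraries. The antisense genes HIF1A-AS1 and HIF1A-AS2 were not analysed here.

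EPAS1 was abundant in every library and highest in the pool that received its cDNA. It had 945.7, 3243 and 879.7 CPM in replicates 1, 2 and 3 of the HIF-2α overexpressing cells, 575.2, 626.9 and 396.9 CPM in the HIF-1α re-expressing cells, and 455.9, 224.2 and 162.0 CPM in the control cells. The overexpressing libraries lay above all 6 others, and the re-expressing libraries overlapped with control replicate 1. Set against the control library of the same number, EPAS1 was at 2.07, 14.5 and 5.43 times its level, and 19.7% of tested genes were higher in all 3 pairs. Replicate 2 thus held the highest HIF1A level of the re-expressing cells and the highest EPAS1 level of the overexpressing cells.

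The log2 fold change of EPAS1 after overexpression was 2.59 (SE 0.57, adjusted p = 0.490, edgeR). The block gave 2.48 (SE 0.46, adjusted p = 0.0690, edgeR), and DESeq2 2.60 (SE 0.54, adjusted p = 0.00157), so that only DESeq2 passed the threshold among the alternatives, whose adjusted p ranged up to 1.00. Of all genes DESeq2 called 0.252% higher in that comparison, the block 0.112% and the fit without a block 0%. That fit found 476 genes higher, or 3.35%, and 362 lower when p under 0.05 was taken without adjustment. The groups of libraries did not overlap for EPAS1, nor for 11.2% of tested genes in either direction. Without replicate 2 of the overexpressing cells the log2 fold change was 1.70.

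After re-expression of HIF-1α, EPAS1 exceeded its control in 3 of 3 pairs, at 1.26, 2.80 and 2.45 times the control level, as were 29.0% of tested genes. The log2 fold change was 0.93 (SE 0.54, adjusted p = 0.365, edgeR), and no alternative passed the threshold (adjusted p of 0.154 to 0.629, edgeR or DESeq2). The same 3 control libraries serve both contrasts. Between the infected pools EPAS1 was lower in the re-expressing cells (log2 fold change -1.66, SE 0.55, adjusted p = 0.230, edgeR). DESeq2 alone passed, with -1.70 (adjusted p = 0.0414), in a comparison where it called 0.940% of genes lower. Without replicate 2 of the overexpressing cells the difference was -0.79.

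ARNT, the common partner, showed the smallest spread of the 3 tested members, with an SD of log2 CPM over the 9 libraries of 0.30, against 1.19 for EPAS1 and 2.20 for HIF1A. It had 38.6, 42.6 and 33.1 CPM in the control cells, 37.1, 47.0 and 69.9 CPM in the re-expressing cells and 39.3, 51.8 and 45.4 CPM in the overexpressing cells. The 3 groups overlapped, and replicate 3 of the re-expressing cells was the highest library. Its log2 fold changes were 0.43 (SE 0.25, adjusted p = 0.366) after re-expression of HIF-1α, 0.26 (SE 0.25, adjusted p = 0.874) after overexpression of HIF-2α and 0.17 (SE 0.25, adjusted p = 0.803) between the infected pools, all from edgeR. Without control replicate 3 the value after overexpression was 0.16. None of the 16 alternatives passed in any of these comparisons.

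**Figure D2:**
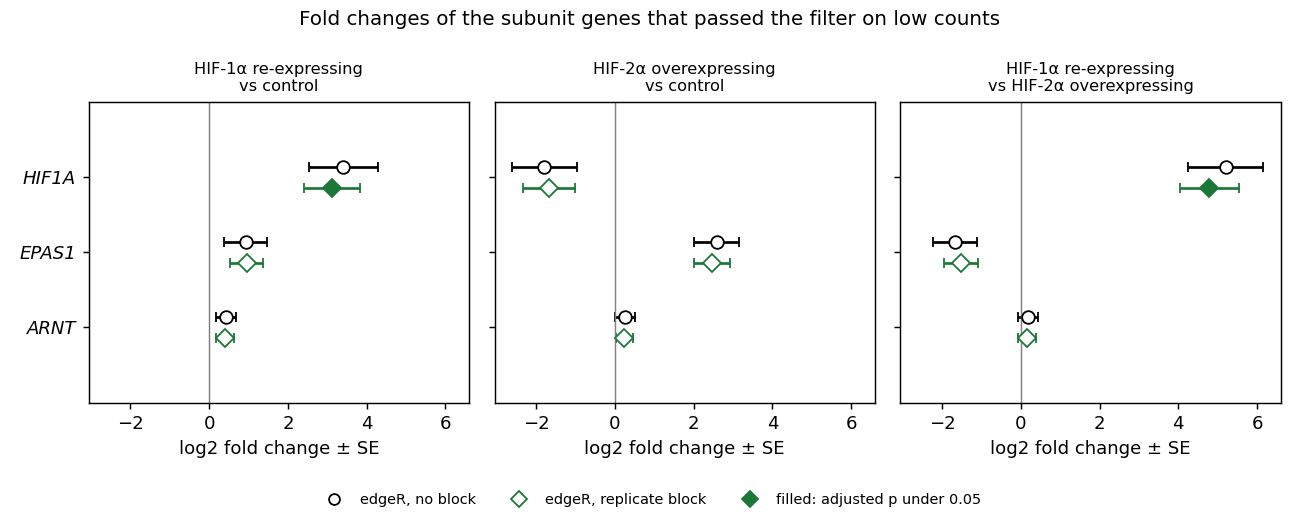
Log2 fold changes (points) with standard errors (bars) of HIF1A, EPAS1 and ARNT in 3 comparisons, from edgeR without and with the replicate block. The standard errors were computed from the F statistic. Filled symbols have an adjusted p under 0.05: HIF1A with the block, at 3.12 against the control cells (not passed without control replicate 3) and at 4.79 against the HIF-2α overexpressing cells.

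HIF3A, whose product is a further HIF-α with splice forms that inhibit the others, was close to undetected. Its counts were 2, 6 and 2 in the control libraries, 7, 8 and 9 in the re-expressing libraries and 5, 2 and 6 in the overexpressing libraries. The levels were 0.0517 to 0.202 CPM, and on this scale the re-expressing and control libraries overlapped. At this depth no difference was detectable, and no fold change is given.

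To set the members against each other, CPM were divided by the length of their annotated exons, 5.15 kb for HIF1A, 7.29 kb for EPAS1 and 6.45 kb for ARNT, and expressed relative to ARNT in the same library. In the control cells EPAS1 mRNA per kb was 10.4, 4.66 and 4.34 times that of ARNT in replicates 1, 2 and 3. HIF1A mRNA per kb was 0.986, 1.08 and 5.74 times that of ARNT, near parity in 2 libraries and above EPAS1 in replicate 3. In the re-expressing cells the HIF1A ratio was 5.79, 44.8 and 8.46 and the EPAS1 ratio 13.7, 11.8 and 5.02. In the overexpressing cells the HIF1A ratio was 0.487, 0.734 and 0.482 and the EPAS1 ratio 21.3, 55.4 and 17.1.

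HIF-α mRNA therefore exceeded ARNT mRNA per kb in all 9 libraries, and the sum of HIF1A and EPAS1 was between 5.73 and 56.6 times ARNT. In the re-expressing cells the order of the HIF-α genes differed by library, with EPAS1 2.37 times HIF1A per kb in replicate 1, and HIF1A 3.80 and 1.68 times EPAS1 in replicates 2 and 3. In the overexpressing cells EPAS1 was 43.7, 75.5 and 35.5 times HIF1A per kb. Over coding lengths (2.55, 2.61 and 2.37 kb) the order in the re-expressing libraries was the same, with HIF1A at 0.305, 2.75 and 1.22 times EPAS1. Control replicate 3 changed order, from 1.32 times EPAS1 over exons to 0.957 times over coding lengths. Since endogenous HIF1A transcripts of 786-O cells lack the distal exons and the viral transcripts carry the cDNA, which length applies cannot be read from the counts.

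The libraries of the 3 pools did not overlap in the HIF1A ratio to ARNT, and those of the overexpressing cells did not overlap with the others in the EPAS1 ratio. For HIF1A after re-expression the gap was narrow, 5.79 against 5.74. Of 14224 tested genes other than ARNT, the ratio to ARNT did not overlap for 18.4% after re-expression, 12.2% after overexpression and 12.4% between the infected pools, in either direction. The exact two-sided permutation test on log2 ratios did not use the pairing and gave p = 0.1 in these 5 comparisons, the smallest that 3 against 3 libraries allow, and p = 0.12 after adjustment over 6 comparisons. The EPAS1 ratio of the re-expressing cells overlapped with that of the control cells (exact permutation p = 0.2). The mean EPAS1 ratio was 6.48 ± 3.44 (SD, n = 3) in the control cells, 10.2 ± 4.57 in the re-expressing cells and 31.3 ± 21.0 in the overexpressing cells, where it was 19.2 without replicate 2.

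**Figure D3:**
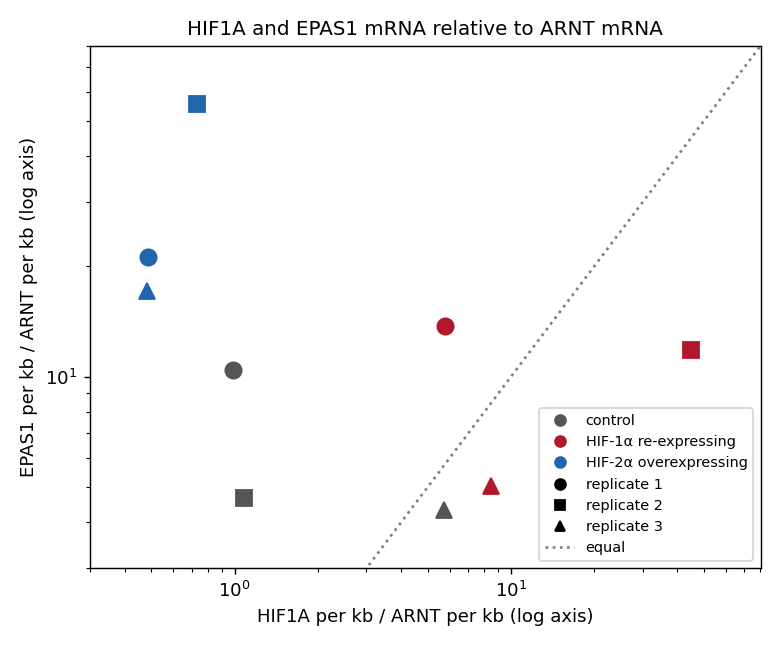
EPAS1 per kb over ARNT per kb against HIF1A per kb over ARNT per kb (log axes) in each of the 9 libraries, with colours for pools, symbols for replicate numbers and a dotted line where HIF1A and EPAS1 are equal. Overexpressing libraries sit at the upper left with HIF1A ratios of 0.482 to 0.734, and replicate 2 of the re-expressing cells lies farthest to the right at 44.8.

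HIF peaks at the members' own start sites were counted by the midpoint of the 2500-bp windows. Within 10 kb of any annotated start, HIF1A had a peak in 2 of the 7 lists, EPAS1 in 3, HIF3A in 1 and ARNT in 0. Of 13767 tested genes matched to an annotation, 55.0% had a peak there in at least 1 list, 35.8% in at least 2 and 22.9% in at least 3. At HIF1A the peaks were those of HIF-1α and HIF-1β in the re-expressing cells, centred 0.084 and 0.135 kb after the RefSeq start, so that their windows cover the promoter shown above. At EPAS1 HIF-1β was called 0.043 kb after the start in the re-expressing cells and 0.077 kb before it in the overexpressing cells, and HIF-1α 1.28 kb after it in the re-expressing cells. At HIF3A HIF-1β was called 1.84 kb after the start in the overexpressing cells. Neither list of the control cells, and neither HIF-2α list of the infected cells, held a peak within 10 kb of any member.

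These lists are not equally long. Of the tested genes 34.6% had a HIF-1α peak of the re-expressing cells within 10 kb, and 40.8% a HIF-1β peak of those cells. The share was 25.7% for HIF-1β and 5.33% for HIF-2α in the control cells, 16.2% for HIF-1β and 14.5% for HIF-2α in the overexpressing cells and 4.22% for HIF-2α in the re-expressing cells. No list was found at 3 or more members. With 1 library per antiserum and pool there is no replicate check and no test, and a site without a peak may hold signal under the threshold of the peak caller.

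The surroundings of EPAS1 were richer in peaks than those of the other members. Within 50 kb EPAS1 had a peak in 6 lists, HIF1A in 2, HIF3A in 2 and ARNT in 0, and within 100 kb, a window added after these peaks were seen, EPAS1 had one in all 7. Of the tested genes 10.0% had a peak in at least 6 lists within 50 kb, and 9.61% in all 7 within 100 kb. The site that all 7 lists share lay 64.4 kb before the RefSeq start of EPAS1, at midpoints between 46459548 and 46460220 on chromosome 2, a spread of 672 bp. It was the only HIF-2α peak of the control cells near a member. The nearest annotated start site of any gene was that of the pseudogene RPL36AP14, 24.1 kb away. Of the 1719 HIF-2α peaks of the control cells, 296 (17.2%) shared a base with a peak of every other list, and 5.61% of tested genes had such a site within 100 kb of a start site.

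The sequence of this site, printed above, held 3 HRE cores within 33 bases, of which the first pair lie on the printed strand and the last on the other, and 21 bases further the AP-1 motif. This cluster (chr2:46460176-46460236) lay inside all 7 windows, which are 2500 bp wide, so this does not place the centre of each peak on it. The midpoints of HIF-1β in the control cells (46459722) and of HIF-1β and HIF-2α in the overexpressing cells (46459548 and 46459962) lay before the first printed base. The central 300 bases of those peaks do not hold the cluster. At least as many HRE cores were found in the central 300 bases of 9.83% of the HIF-2α peaks of the control cells, and both motifs in 17.3%. AP-1 is the motif of the FOS and JUN family and is found at many distal elements.

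Other peaks near EPAS1 lay about 28 kb upstream, in the HIF-1β lists of the control and re-expressing cells and the HIF-2α list of the overexpressing cells (28.1, 27.9 and 27.9 kb). At 67.9 kb upstream HIF-1β of the control cells and HIF-2α of the overexpressing cells had peaks. HIF-2α of the overexpressing cells was also called 72.5 kb upstream and 18.0 kb downstream, the latter together with HIF-1β of the control cells at 17.8 kb. HIF-2α of the re-expressing cells had a peak 13.9 kb after the start, and HIF-1β of the control and re-expressing cells at 23.1 and 22.4 kb. In the HIF-2α overexpressing cells HIF-2α thus had 5 peaks within 100 kb of EPAS1, against 1 in the control cells and 2 in the re-expressing cells. These HIF-2α lists held 5283, 1719 and 1350 peaks, and 40.4%, 18.7% and 16.7% of tested genes had a peak of theirs within 100 kb.

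**Figure D4:**
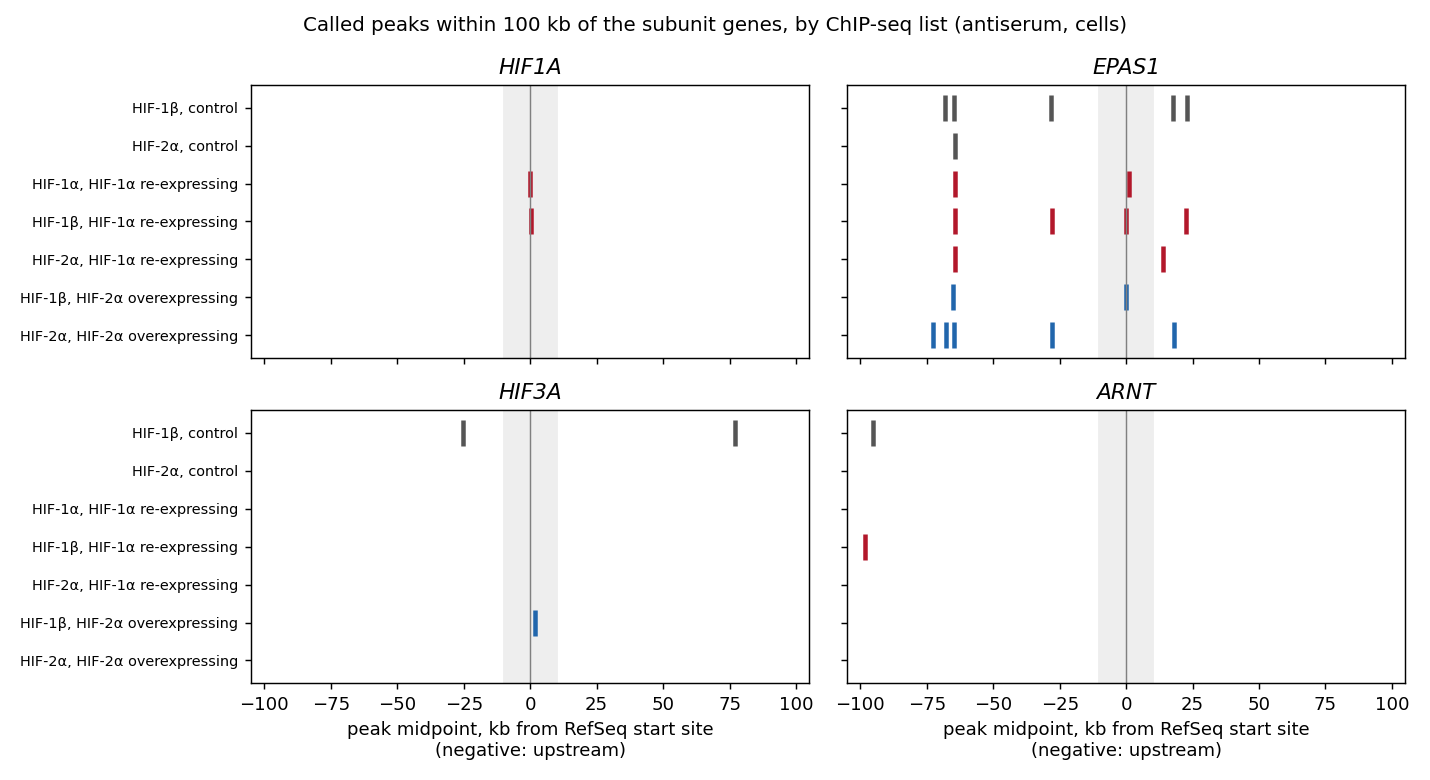
Midpoints of called peaks within 100 kb of HIF1A, EPAS1, HIF3A and ARNT, in kb from the RefSeq start site (negative values upstream), with 1 row for each of the 7 lists and grey shading for the 10 kb to either side. The column of marks 64.4 kb upstream of EPAS1 runs through all 7 lists, and ARNT has marks only beyond 95 kb.

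Other genes of the pathway were taken from lists. Of 12 bHLH-PAS relatives, 11 were tested. ARNT2, an alternative partner of HIF-α, had 12.0, 15.2 and 18.7 CPM in the control cells, 19.1, 13.1 and 17.2 CPM in the re-expressing cells and 11.1, 16.8 and 22.7 CPM in the overexpressing cells, and the groups overlapped. Without a block none of the relatives passed the edgeR threshold in a comparison with control. At an unadjusted p under 0.05 (edgeR) 3 differed after re-expression, 2 higher and 1 lower, and 0 after overexpression. Of 14225 tested genes 1586 were higher and 1171 lower in the first comparison, and 476 and 362 in the second. The largest values against control were those of SIM1 and SIM2, partners of ARNT with a role in development, after re-expression (log2 fold changes 2.48 and -1.08), and those of SIM1 and AHRR, the repressor of the aryl hydrocarbon receptor, after overexpression (0.87 and -0.83). No gene of the pathway lists passed against the control cells in the blocked fit without control replicate 3. Each blocked call against them named in what follows is thus lost without that library. No other library was left out of the blocked fit. Whether the loss is particular to control replicate 3 was not tested. With the block AHR, the aryl hydrocarbon receptor, rose after re-expression of HIF-1α, by 0.98 (SE 0.19, adjusted p = 0.0358, edgeR), from 63.7, 87.6 and 77.6 CPM to 150.5, 127.0 and 171.6 CPM. DESeq2, with all libraries and no block, also called AHR higher (0.94, adjusted p = 0.0186), where it called 3.39% of all genes higher. AHR also pairs with HIF-1β.

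All 9 genes of oxygen sensing and HIF degradation were tested, and 0 passed edgeR without a block in either comparison with control. At an unadjusted p under 0.05 (edgeR) 2 were lower after re-expression and 1 was higher after overexpression. Among all 14225 tested genes 1171 were lower in the first comparison and 476 higher in the second. With the block 1 fell after re-expression, TCEB1 (elongin C, a part of the VHL ubiquitin ligase), with a log2 fold change of -0.78 (SE 0.18, adjusted p = 0.0424, edgeR), where the block called 2.55% of all genes lower. DESeq2, with all libraries and no block, also called TCEB1 lower (-0.81, adjusted p = 0.0126), as it did 240 of 14631 genes. EGLN1, the main HIF prolyl hydroxylase, had the next largest value (0.75, adjusted p = 0.285, edgeR). It had 90.1, 211.6 and 69.0 CPM in the re-expressing cells against 71.2, 85.0 and 64.3 CPM in the control cells, with replicate 2 far above the others. With the block 1 rose after overexpression of HIF-2α, EGLN3, itself a HIF target, by 1.83 (SE 0.26, adjusted p = 0.0372, edgeR), where the block called 0.112% of all genes higher. Its level went from 127.6, 205.2 and 171.2 CPM to 355.5, 912.1 and 650.3 CPM. DESeq2, with all libraries and no block, also called EGLN3 higher (1.93, adjusted p = 0.0382), where it called 0.252% of all genes higher. TCEB2 had the next largest value (-0.53, adjusted p = 0.842, edgeR), which was -0.28 without control replicate 3.

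All 7 coactivators and their regulators were tested. After re-expression their median log2 fold change was 0.53, and all 7 were above 0, against a median of 0.04 over all tested genes. Without control replicate 3 their median was 0.33. CITED4, a CBP and p300 binding protein, rose with the block by 1.47 (SE 0.35, adjusted p = 0.0431, edgeR), at 0.654 to 4.45 CPM in these libraries. DESeq2 did not call it (1.55, adjusted p = 0.0585). NCOA2, a coactivator of the p160 family, had 1.47 (adjusted p = 0.235, edgeR), and control replicate 3 lay far below the other control libraries in it, at 2.84 against 16.8 and 21.7 CPM. Without that library NCOA2 was at 0.98 after re-expression and 0.59 after overexpression. After overexpression the largest values were those of NCOA2 (1.08) and of CITED2, which competes with HIF-α for p300 (-0.59). There 0 passed edgeR with or without the block, or DESeq2. In the blocked fit 2 were higher at an unadjusted p under 0.05 (edgeR), as were 1094 of 14225 genes.

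Of 28 HIF target genes 27 were tested, and EPO, the gene of erythropoietin, was not. After re-expression of HIF-1α their median log2 fold change was 0.68, with 21 of 27 above 0, and after overexpression of HIF-2α it was 0.67, with 20 of 27 above 0, where all tested genes had medians of 0.04 and -0.02. Leaving out re-expressing replicate 2 lowered the first median to 0.42, over 28 targets then tested. The number of targets higher at an unadjusted p under 0.05 (edgeR) fell from 13 to 6. Over all genes that number went from 1586 of 14225 to 1195 of 14450. Without a block 0 passed edgeR in either comparison, with 13 and 10 higher at an unadjusted p under 0.05, where 11.1% and 3.35% of all genes were. With the block 6 rose after re-expression, CA9, BNIP3L, KDM3A, P4HA1, LOX and MXI1, where the block called 5.41% of all genes higher. It called 2 targets higher after overexpression, EGLN3 among them, against 0.112% of all genes. None fell. DESeq2 called 5 higher in each of the comparisons, against 3.39% and 0.252% of all genes. Without control replicate 3 the blocked fit called 0 targets in either comparison. At an unadjusted p under 0.05 (edgeR) it had 11 and 7 higher, where 1680 and 479 of 14471 genes were.

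CA9, carbonic anhydrase IX, and LOX, lysyl oxidase, had the largest values after re-expression. CA9 had 8.45, 176.5 and 68.3 CPM in the re-expressing cells, 0, 0.171 and 14.3 CPM in the control cells and 0.120, 0.105 and 0.694 CPM in the overexpressing cells. Replicate 1 of the re-expressing cells, the library with the lowest HIF1A, also had the lowest CA9 of its pool and overlapped with control replicate 3, the control library with the highest HIF1A. What part HIF1A had in this was not tested. The log2 fold change of CA9 was 4.13 (SE 1.71, adjusted p = 0.236) and with the block 5.72 (SE 1.36, adjusted p = 0.0427), both from edgeR. Control replicate 3 held 549 of the 555 control counts of CA9. Without it the fitted values were 9.94 and, with the block, 9.63 (adjusted p = 0.0951, edgeR), and their size depends on the prior count. LOX had 91.5, 485.3 and 208.6 CPM in the re-expressing cells against 42.5, 7.40 and 11.9 CPM in the control cells. After overexpression of HIF-2α the largest values were those of CA9 (-3.93, adjusted p = 0.837) and of CXCR4, a chemokine receptor (3.29, adjusted p = 0.730), from edgeR. The CA9 value had the opposite sign, 1.89, without control replicate 3.

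Library by library, the 27 targets were set against the control library of the same number (log2 CPM with a prior count of 2). Their median change was 0.16, 1.25 and 0.54 in replicates 1, 2 and 3 of the re-expressing cells, and 0.04, 1.16 and 0.83 in those of the overexpressing cells. Over all 14225 tested genes the medians lay between -0.03 and 0.08. Replicate 2 had the largest median in both pools, and it also had the largest HIF1A and EPAS1 levels of those pools. Replicate 1 had the smallest, with HIF1A at 171.4 CPM, the lowest of its pool, and EPAS1 at 945.7 CPM. The lowest EPAS1 level of the overexpressing cells was that of replicate 3, 879.7 CPM, whose target median was the larger 0.83. Without CA9 and LOX the medians in the re-expressing cells were 0.07, 1.22 and 0.26. A log2 change of at least 1 was seen for 3, 16 and 7 of 27 targets in the re-expressing libraries and for 5, 15 and 11 in the overexpressing libraries. Over all tested genes the share was 6.43, 12.3 and 18.2% in the re-expressing libraries and 2.79, 7.21 and 7.34% in the overexpressing libraries. The pools share their 3 control libraries, and with 3 libraries in each no correlation was taken. Those control libraries differed in the targets themselves, so each median also depends on the control library of its number. VEGFA had 745.1, 288.4 and 398.8 CPM in control replicates 1, 2 and 3. LDHA went the other way, with 1526, 2614 and 2951 CPM. How much the control libraries add to the order of the medians was not tested.

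**Figure D5:**
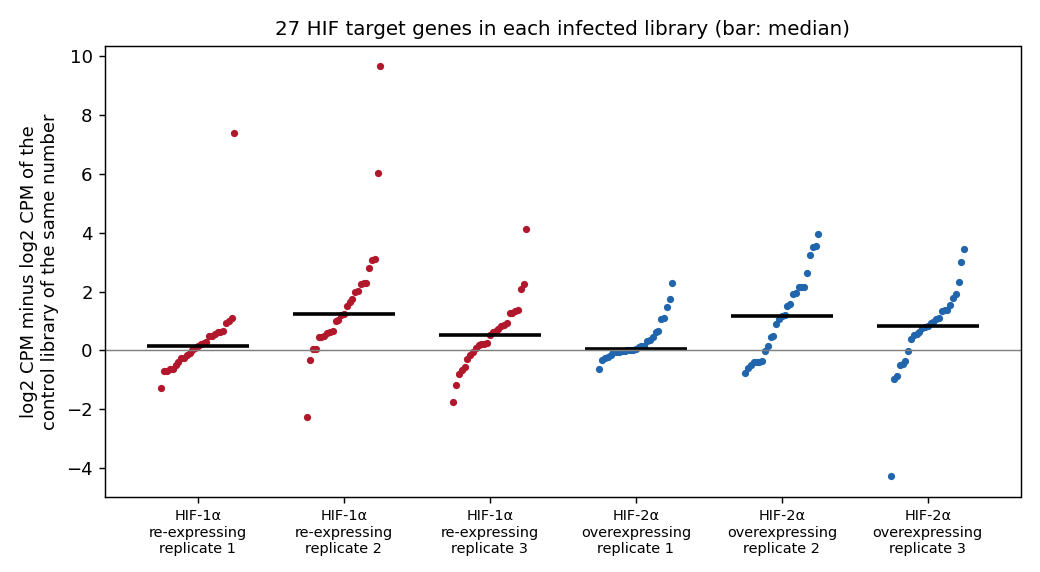
Log2 CPM of 27 HIF target genes minus log2 CPM in the control library of the same number, for each of the 6 infected libraries, with 1 point per gene in rising order and a bar at the median. The medians are 0.16, 1.25 and 0.54 in the re-expressing libraries and 0.04, 1.16 and 0.83 in the overexpressing libraries.

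Genes with a pattern like that of a member were sought among 10669 tested genes with a mean of at least 5 CPM, by the root mean square difference of centred log2 CPM over the 9 libraries. Nearest to HIF1A were SFMBT2 (0.81), RAB6B (0.90) and CDH11 (0.96), against a median of 2.26 over all candidates. SFMBT2 had 8.43, 23.4 and 26.8 CPM in the re-expressing cells and 1.78, 2.70 and 4.95 CPM in the control cells, and CDH11 reached 13.4 CPM in control replicate 3, against 1.37 and 2.39 CPM in the other control libraries. Nearest to EPAS1 were SLC5A3 (0.37), NCR3LG1 (0.48) and TTLL7 (0.49), against a median of 1.25. SLC5A3, a myo-inositol transporter, had 230.4, 632.9 and 281.3 CPM in the overexpressing cells and 155.1, 103.8 and 59.5 CPM in the control cells, with the highest and the lowest library in the same place as for EPAS1. Among the genes nearest to ARNT were ZBTB33 (0.10) and LIX1L (0.11), against a median of 0.49.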

How the data were processed

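Gene expression was measured in 9 RNA-seq libraries (3 pools, 3 replicates) and binding in 7 ChIP-seq libraries. The expression table that the authors deposited holds unnormalized read counts by gene symbol, 1 column for each library. Per their methods reads were aligned with TopHat and Bowtie and counted with HTSeq on UCSC genes. Whether strand was used in counting is not given in the sources used here. For ChIP-seq they deposited peak positions on GRCh37, made with BWA and kept where both T-PIC and MACS called them, without score or signal, as windows of 2500 bp. Versions named in the submitters' processing notes are BWA 0.7.5a-r405, TopHat2 2.0.8b, Bowtie 1.0.0 and HTSeq 0.5.4p3. Input libraries were not used.

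All 9 libraries entered 1 edgeR 4.0.16 quasi-likelihood fit in R 4.3.3, with the pool as its only term, TMM factors, edgeR's filter on low counts (14225 genes kept) and Benjamini-Hochberg adjustment with a threshold of 0.05. The paper states that RNA was prepared in triplicate. The labels say nothing of separate cultures, so p-values measure the spread between libraries, and what part of it is technical was not tested. Replicate numbers pair the libraries: after pool means were removed, 9 same-number pairs correlated at 0.348 to 0.652 and 18 other pairs at -0.478 to 0.0281. Values with the block are given beside a result whose call they change. The SE of an edgeR value was computed as its absolute log2 fold change divided by the square root of the F statistic. DESeq2 gave its own SE. DESeq2 1.42.0, RLE and upper quartile factors, no filter, 2 pools only, leaving out each library and, added after the values were seen, the block without control replicate 3 were alternatives. The fit without a block was also run on simulated counts that held no effect of the replicate number. Since these libraries pair by number, that run does not show how the fit performs on them. Variation between libraries, not counting error, limits precision at totals of 27852754 to 54287621. Ratios were tested with scipy 1.17.1. Python 3.11.15, numpy 2.4.6 and matplotlib 3.10.9 were also used.

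Start sites, exons and coding lengths came from GENCODE lifted to GRCh37. Of 14225 tested genes 13767 were matched to it by symbol or synonym. Promoter sequences came from RefSeq (GRCh38.p14) and were placed on GRCh37 by exact match. The windows' midpoint stood for the summit.

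Members and gene lists were chosen with earlier results of these data known. Named are the members, SNAPC1, per list and comparison with control the 2 tested genes with the largest absolute log2 fold change, per member with at least 1 CPM the 3 genes nearest in profile, and any gene needed for a count of 5 or fewer. KDM3A, BNIP3L, P4HA1, MXI1, AHR and ARNT2 were named after their values were seen. Some genes that this rule names are not reported here.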

Additional observations from a re-analysis of the deposited data

How the results depend on the processing

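Of 248 recomputed values, 224 were classed as the same. For log2 fold changes this meant the same direction and side of the threshold. Counts of list genes and of peak lists have no SD between libraries and were judged by the size of the count alone. Counts that did not change at all are among the 224. Ratios to ARNT and target medians were classed as the same where they moved by less than the SD between libraries, which is wide. Such moves took the mean HIF1A ratio to ARNT from 2.60 to 1.03 in the control cells without replicate 3 and from 19.7 to 7.12 in the re-expressing cells without replicate 2, and the EPAS1 ratio of the overexpressing cells from 31.3 to 19.2 without replicate 2. They took the target median of re-expressing replicate 3 from 0.54 to 0.26 without CA9 and LOX, and that of overexpressing replicate 1 from 0.04 to 0.26 against the mean of the control libraries. The replicate block moved the log2 fold change of HIF1A past the threshold after re-expression (3.12) and between the infected pools (4.79). DESeq2 did so too (3.39 and 5.18), as did leaving out the filter on low counts for the second comparison (5.19). DESeq2 alone called EPAS1 after overexpression (2.60) and between the infected pools (-1.70). Without 1 library at a time, the second HIF1A value ran from 3.90 to 5.67, where leaving out replicate 1 of the HIF-1α re-expressing cells passed, and that of ARNT between the infected pools from -0.11 to 0.35. It was negative when re-expressing replicate 3 was left out. The block changed no other call of a member. With the block and without control replicate 3, a fit chosen after seeing the data, HIF1A passed between the infected pools (4.84) and not against the control cells (4.12).

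Genes of the fixed lists past the threshold, 0 in every comparison without a block, numbered 9 after re-expression, 2 after overexpression and 9 between the infected pools with the block, and 7, 5 and 10 with DESeq2. They numbered 0, 0 and 8 with the block and without control replicate 3. Without the filter they numbered 2 between the infected pools. Why the calls differ between fits was not tested. Coding lengths lowered the HIF1A ratio to ARNT in the overexpressing cells to 0.421. A window of 50 kb gave 6 lists with a peak for EPAS1 and 2 for HIF3A, and a window of 100 kb, chosen after seeing the data as was leaving out CA9 and LOX, gave 7 for EPAS1 and 2 each for HIF3A and ARNT. HIF3A, with at most 9 counts in a library, had no value in the filtered fits. For the ChIP-seq lists depth is unknown, and no paired analysis of peaks was possible because each list is 1 library.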
